A study of Mus musculus with 4 samples.

Results

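The genes described here encode molecular chaperones: the heat shock proteins, their DnaJ partners and the chaperonin subunits. They were chosen by symbol alone (Hspa, Hspb, Hsp90, Hspd1, Hspe1, Hsph1, Dnaja, Dnajb, Dnajc and Cct names, and Tcp1), which took 82 of the 23282 gene rows of the count tables. They comprise 3 HSP90, 11 HSP70, 3 HSP110, 8 small HSP, 2 mitochondrial chaperonin, 10 CCT, 4 DNAJA, 13 DNAJB and 28 DNAJC genes. The RNA came from explant cultures of dorsal root ganglia, which hold the cell bodies of sensory neurons and their glia, taken from C57BL/6 mouse embryos at embryonic day 13. All cultures grew on coverslips coated with Matrigel, in growth medium up to day in vitro (DIV) 8 and in myelination medium from then on. The electrically stimulated (ES) cultures received a field of 50 mV/mm at 20 Hz for 1 h at 10 DIV, and the control cultures received none. There were 4 libraries: ES and control cultures harvested at 19 DIV, and ES and control cultures harvested at 11 DIV. Each library held the pooled RNA of 3 explants and was the only one of its group. No difference below therefore has a replicate check, and ratios compare libraries, not conditions.

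Chaperones bind unfolded or partly folded proteins and help them reach or keep their native shape. HSP70 proteins bind short hydrophobic stretches under control of ATP, DnaJ proteins bring clients to HSP70 and trigger its ATPase, HSP110 proteins exchange its nucleotide, and HSP90 proteins finish the folding of kinases, receptors and other clients. CCT and the mitochondrial chaperonin enclose whole proteins in a chamber; CCT is known for folding actin and tubulin, the building material of axons. Heat shock factors induce the cytosolic members under protein stress, while the unfolded protein response induces those of the endoplasmic reticulum (ER).

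Each library started from 500 ng total RNA and a QuantSeq kit, whose reads are tags close to the 3′ end of a transcript. A count thus does not grow with transcript length, and CPM, a count scaled to a common library total, can be compared between genes as a share of tags. The totals were 7830950 reads in ES and 6730614 reads in control at 19 DIV, and 5782834 reads in ES and 6197537 reads in control at 11 DIV. Levels are CPM scaled by TMM over the 4 libraries. Counting error was a small part of the differences: for genes with 500 to 3000 mean reads, the typical squared difference between 2 libraries was 208 to 258 times its counting variance. Counts were therefore divided by this spread factor before a Clopper-Pearson 95% interval was put on a ratio, and an interval given beside a ratio is of this kind unless it is called a counting or a 99% interval. Sensory neuron and glial genes were present in every library (neuron markers summed to 1698 CPM in the ES library and 4120.2 CPM in the control library at 19 DIV, and 4334 CPM in the ES library and 3143 CPM in the control library at 11 DIV). Snap25 and Isl1 among the 10 neuron markers had no reads in the ES library at 19 DIV, and Erbb3, Cdh19, Fabp7 or S100b among the 10 glial markers had none in 1 or more libraries. In pooled explants, fewer cells of a type and less RNA per cell cannot be told apart.

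Together the 82 genes held 11463 CPM in the ES library and 11431 CPM in the control library at 19 DIV, and 11126 CPM in the ES library and 14427 CPM in the control library at 11 DIV. The control library at 11 DIV was the highest of the 4, and the other 3 lay close to each other. No read was found for 11 of the 82 genes in any library (13.4%, against 44.7% of all rows), 48 had reads in all 4, and 30 averaged 500 reads or more. Of those 30, 11 varied by no more than 2-fold between the highest and the lowest library (36.7%, against 29.4% of the 2963 rows at that depth). The control library at 11 DIV was the highest for 11 of the 30 and the ES library at 19 DIV for 4.

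**Figure D1:**
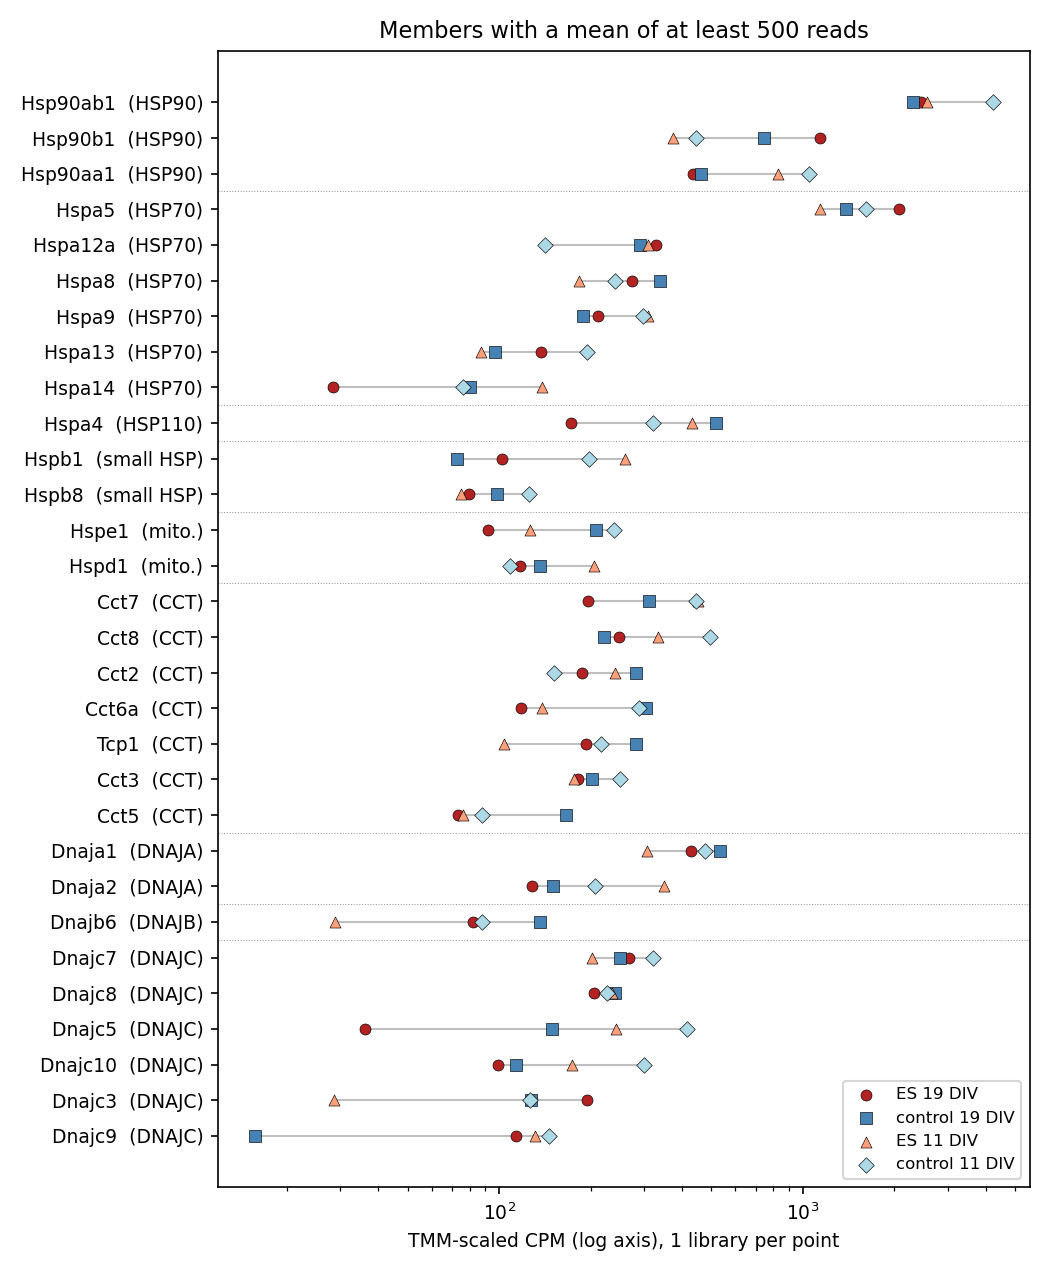
TMM-scaled CPM (log axis) of the 30 chaperone genes averaging 500 reads or more, grouped by family, with 1 point per library and a line from the lowest to the highest. Hsp90ab1 and Hspa5 stand at the right in every library, Hsp90b1 and Hspa5 are highest in the ES library at 19 DIV, and Hsp90ab1 is highest in the control library at 11 DIV.

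The main chaperones of the ER were most abundant in the ES library at 19 DIV. Hspa5 (BiP), the HSP70 of the ER lumen, and Hsp90b1 (GRP94), its HSP90, had 1.49 and 1.53 times the level of the control library of the same day, and Hsp90b1 had 3.06 times the level of the ES library at 11 DIV. Dnajc3, a DnaJ protein of the ER that also restrains the kinase PERK, was likewise highest in ES at 19 DIV and lowest in ES at 11 DIV, at lower counts. Among the 67 chaperone genes with a promoter sequence, these 3 were the only ones to hold the letters of the ER stress response element.

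Hspa5 (chr2:34771970-34777547, plus strand, GENCODE M21 on GRCm38) stood at 2071 CPM in the ES library and 1385 CPM in the control library at 19 DIV, and 1141 CPM in the ES library and 1616 CPM in the control library at 11 DIV. The ES libraries thus held the highest and the lowest value, with the 2 controls between them. The ratio of ES to control was 1.49 at 19 DIV (interval 1.002 to 2.26) and 0.706 (interval 0.435 to 1.13) at 11 DIV. With the spread factor taken from genes of 2000 to 20000 reads, a setting chosen after seeing the data, the interval at 19 DIV was 0.995 to 2.27 and included equality. Between the days, 19 over 11 DIV, it was 1.82 (interval 1.14 to 2.98) in ES and 0.857 (interval 0.543 to 1.35) in control.

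Hsp90b1 (chr10:86690209-86705509, minus strand), whose clients include integrins and Toll-like receptors, stood at 1141 CPM in the ES library and 747 CPM in the control library at 19 DIV, and 373 CPM in the ES library and 446 CPM in the control library at 11 DIV. Both libraries of 19 DIV lay above both of 11 DIV, and ES at 19 DIV was the highest. The ratio of 19 to 11 DIV was 3.06 (interval 1.42 to 7.41) in ES and 1.67 (interval 0.784 to 3.78) in control, and that of ES to control was 1.53 (interval 0.883 to 2.71) at 19 DIV and 0.835 (interval 0.332 to 2.06) at 11 DIV. In ES between the days, Hsp90b1 was the only chaperone gene of the 62 with 50 reads to pass a rule of 2-fold and a 99% spread-adjusted interval that excludes equality, a rule that called 0.162% of all genes higher. Genes with few reads could hardly pass that rule, whatever their ratio. With the wider spread factor the 95% interval of Hsp90b1 was 1.23 to 9.07 and it no longer passed. Its exons overlap those of 1810014B01Rik on the other strand, and whether strand was used in counting is not given in the sources used here.

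Dnajc3 (chr14:118937976-118981697, plus strand) had 1560 reads in the ES library and 877 in the control library at 19 DIV, and 169 in the ES library and 731 in the control library at 11 DIV, or 195 and 28.5 CPM in ES at 19 and 11 DIV, against 127 and 126 CPM in control. The ES library at 11 DIV stood far below the other 3, and ES at 19 DIV was the highest. The ratio of ES to control was 1.54 (interval 0.373 to 7.64) at 19 DIV and 0.226 (interval 0.00219 to 2.84) at 11 DIV, and both intervals included equality.

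The promoters of these 3 genes are shown because they share letters that few promoters have. The ER stress response element, which the transcription factors ATF6 and NF-Y bind in mammalian cells, was searched as CCAAT, any 9 bases and CCACG, on both strands of the 250 bases before the start of each gene, in RefSeq sequences of GRCm38.p6. It was present for 35 of 27025 genes (0.130%) and for 3 of the 67 chaperone genes with a promoter in that set. The sequences lie at chr2:34771840-34772089 on the plus strand (Hspa5), chr10:86705445-86705694 on the minus strand (Hsp90b1) and chr14:118937682-118937931 on the plus strand (Dnajc3). They are printed 5′ to 3′ on the strand of the gene, with the fixed letters of each match in capitals; Hsp90b1 has 2 matches, the second on the opposite strand.

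Hspa5: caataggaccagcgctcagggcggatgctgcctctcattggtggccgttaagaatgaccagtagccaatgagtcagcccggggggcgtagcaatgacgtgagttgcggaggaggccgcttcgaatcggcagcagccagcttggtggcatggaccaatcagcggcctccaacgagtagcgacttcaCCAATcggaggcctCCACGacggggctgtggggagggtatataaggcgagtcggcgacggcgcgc
Hsp90b1: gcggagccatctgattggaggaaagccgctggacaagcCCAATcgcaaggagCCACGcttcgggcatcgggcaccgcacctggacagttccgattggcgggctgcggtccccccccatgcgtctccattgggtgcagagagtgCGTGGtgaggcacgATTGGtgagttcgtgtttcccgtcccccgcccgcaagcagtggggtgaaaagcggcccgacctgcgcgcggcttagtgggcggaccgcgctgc
Dnajc3: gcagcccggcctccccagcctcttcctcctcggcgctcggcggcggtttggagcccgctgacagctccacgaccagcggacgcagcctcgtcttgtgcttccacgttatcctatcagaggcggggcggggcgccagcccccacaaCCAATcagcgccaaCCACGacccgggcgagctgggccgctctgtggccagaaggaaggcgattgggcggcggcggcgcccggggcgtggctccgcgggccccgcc

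A match describes letters and is not shown to be a site in use. The motif was looked for after the values of these genes had been seen. Hspa5, Hsp90b1 and Dnajc3 prompted the search, so their values say nothing of the letters. Of the other genes with the letters, 10 had a mean of 10 reads in the ES libraries, and their median log2 difference between 19 and 11 DIV was 0.09, against -0.00 over all genes. In control the median over the other 11 was 1.12, against -0.00. For ES against control it was -0.09 over 9 genes at 19 DIV, against -0.06 over all genes, and -0.21 over 11 at 11 DIV, against -0.05.

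Summed over the 9 ER-resident chaperone genes, the level was 3761 CPM in the ES library and 2617 CPM in the control library at 19 DIV, and 1905 CPM in the ES library and 2928 CPM in the control library at 11 DIV. Hspa5 and Hsp90b1 made up most of these reads, so the sum follows them. The others did not share one order. Hspa13, an HSP70-like protein of microsomes, stood at 137 and 86.9 CPM in ES at 19 and 11 DIV, against 96.9 and 195 CPM in control. Dnajc10, a disulfide reductase that works with Hspa5, stood at 98.9 and 173 CPM in ES at 19 and 11 DIV, against 113 and 299 CPM in control. Both were highest in control at 11 DIV. Dnajb11, which brings secretory proteins to Hspa5, had 263 reads in the ES library and 1 in the control library at 19 DIV, and 258 in the ES library and 545 in the control library at 11 DIV. Its count of 1 in control at 19 DIV stood apart from the other 3 libraries. Dnajc1, a DnaJ protein of the ER membrane, had 314 reads in the ES library and 970 in the control library at 19 DIV, and 7 in the ES library and 674 in the control library at 11 DIV, lowest in ES at 11 DIV. Dnajb9, which keeps the stress sensor IRE1 bound by Hspa5, had 196 reads in control at 11 DIV and no read in the other 3 libraries. With the 0 put at 3 reads, ES was 66.8-fold lower than control at 11 DIV, and the interval of that ratio, 0 to 48.1, included equality.

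The sum of 9 partners of Hspa5 and Hsp90b1 that the choice by symbol did not take was also highest at 19 DIV. Calr, Canx, 3 Pdia genes, Hyou1 and Sec63 were among them. They summed to 3632 CPM in the ES library and 2898 CPM in the control library at 19 DIV, and 2250.0 CPM in the ES library and 2011 CPM in the control library at 11 DIV. Pdia3, a disulfide isomerase of glycoproteins, stood at 1272 CPM in the ES library and 777 CPM in the control library at 19 DIV, and 729 CPM in the ES library and 433 CPM in the control library at 11 DIV. Canx, a lectin of the ER membrane, went the other way, at 416 CPM in the ES library and 442 CPM in the control library at 19 DIV, and 558 CPM in the ES library and 646 CPM in the control library at 11 DIV. Between the days in control, 4 of the 9 were higher by a counting rule (2-fold or more, a raw-count 95% interval that leaves out equality, 50 or more reads on the higher side), and none lower; in ES 2 were higher and 1 lower. That rule called 30.9% of all genes higher in each of these comparisons, and 29.8% lower in control and 30.5% lower in ES. Fibroblast markers were also highest in the ES library at 19 DIV: 8 genes, among them Col1a1 and Dcn, summed to 13062 CPM in the ES library and 9353 CPM in the control library at 19 DIV, and 6712 CPM in the ES library and 4983 CPM in the control library at 11 DIV. All 8 lay above equality for ES against control at 19 DIV and for 19 against 11 DIV in ES, and 1 of them, Fbln1, had no reads in ES at 11 DIV. Their part in the ER chaperone levels was not tested.

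**Figure D2:**
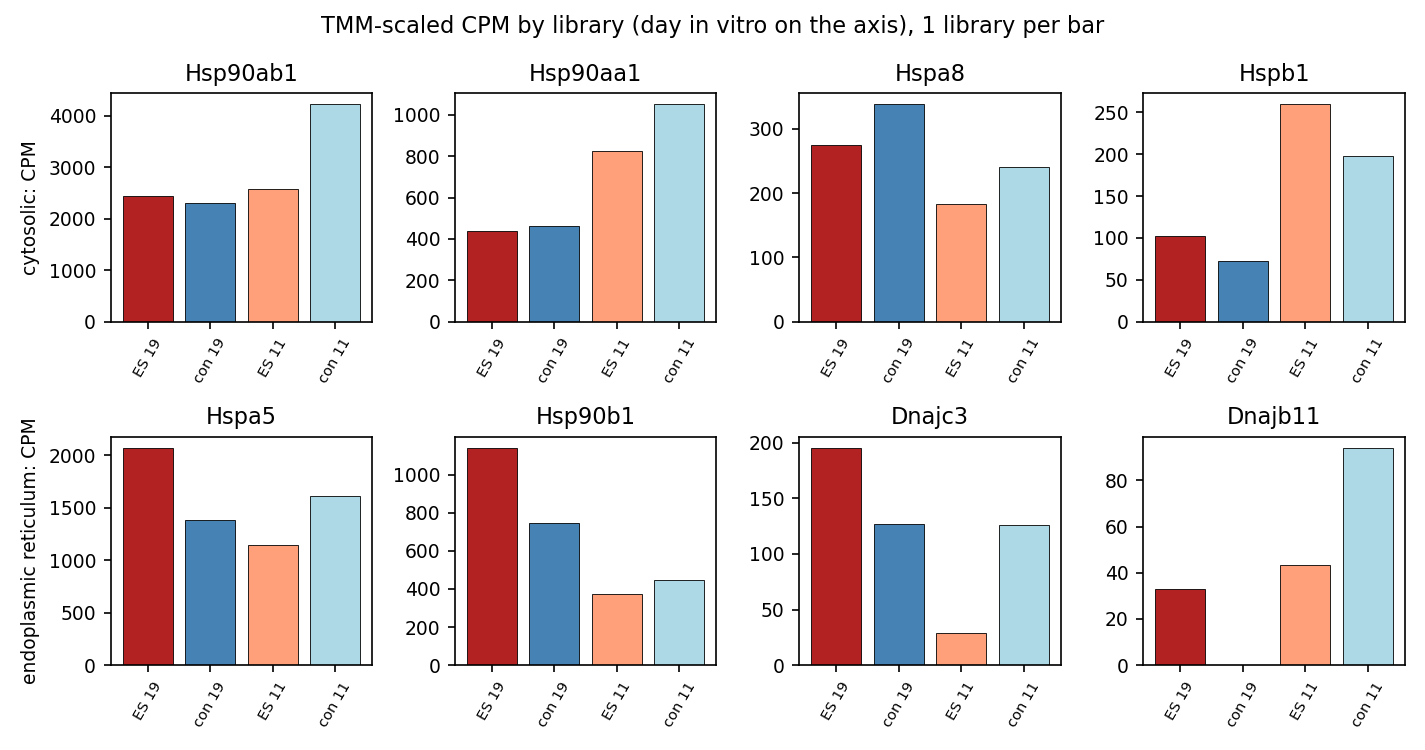
TMM-scaled CPM of 4 cytosolic (upper row) and 4 ER (lower row) chaperone genes, with 1 bar per library and an axis from 0 in each panel; con is control and the number is the day in vitro. Hspa5, Hsp90b1 and Dnajc3 are highest in ES at 19 DIV, while Hsp90ab1 and Hsp90aa1 are highest in control at 11 DIV.

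The cytosolic HSP90 genes were highest in the control library at 11 DIV. Hsp90ab1, the constitutive form, was lower there in ES with a ratio of 0.609, and it was lower in control at 19 DIV, with a ratio of 0.544. Hsp90aa1, the heat-inducible form, was lower in both libraries of 19 DIV than in both of 11 DIV.

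Hsp90ab1 (chr17:45567775-45573271, minus strand) was the most abundant chaperone gene, at 2444 CPM in the ES library and 2299 CPM in the control library at 19 DIV, and 2572 CPM in the ES library and 4225 CPM in the control library at 11 DIV. Control at 11 DIV stood alone, and the other 3 libraries lay between 2299 and 2572 CPM. The ratio of ES to control was 0.609 (interval 0.448 to 0.822) at 11 DIV and 1.06 (interval 0.762 to 1.49) at 19 DIV. Between the days it was 0.95 (interval 0.667 to 1.36) in ES and 0.544 (interval 0.396 to 0.743) in control. With the wider spread factor the 2 intervals below equality became 0.391 to 0.937 for ES at 11 DIV and 0.321 to 0.908 for the days in control, and both still excluded it. The control library at 11 DIV is in both ratios, so the ratios are not separate evidence.

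Hsp90aa1 (chr12:110690605-110702728, minus strand) stood at 436 CPM in the ES library and 464 CPM in the control library at 19 DIV, and 826 CPM in the ES library and 1051 CPM in the control library at 11 DIV. The 2 days did not overlap, and ES lay slightly below control on each. The ratio of 19 to 11 DIV was 0.528 (interval 0.242 to 1.12) in ES and 0.441 (interval 0.213 to 0.875) in control; with the wider factor the second interval was 0.124 to 1.38 and included equality. Against control, ES had a ratio of 0.941 (interval 0.420 to 2.12) at 19 DIV and 0.786 (interval 0.436 to 1.40) at 11 DIV.

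The 3 HSP90 genes summed to 4022 CPM in the ES library and 3509 CPM in the control library at 19 DIV, and 3771 CPM in the ES library and 5723 CPM in the control library at 11 DIV. For the sum, ES over control was 0.659 (interval 0.511 to 0.847) at 11 DIV and 1.15 (interval 0.881 to 1.49) at 19 DIV, and that of 19 to 11 DIV was 1.07 (interval 0.804 to 1.42) in ES and 0.613 (interval 0.472 to 0.794) in control. HSP90 was the only family whose summed ratio excluded equality in any comparison. HSP90 also had the most reads of the families in every library, and the spread factor came from genes with fewer reads. From genes of 2000 to 20000 reads the factor was larger, 420 for ES at 11 DIV and 597 between the days in control. The HSP90 intervals then became 0.457 to 0.945 and 0.399 to 0.936 and still excluded equality. HSP90 had over 20000 reads in each library, so these may still be too narrow, and its standing out may reflect depth. Hsp90ab1 gave 60.8% of the sum in ES and 65.5% in control on 19 DIV, and 68.2% in ES and 73.8% in control on 11 DIV. Among the co-chaperones that serve HSP90 and HSP70, 26 genes such as St13 and Ptges3, the sum was 2606 CPM in the ES library and 2489 CPM in the control library at 19 DIV, and 2543 CPM in the ES library and 2995 CPM in the control library at 11 DIV. Ptges3 (p23), which closes the HSP90 clamp, stood at 239 CPM in the ES library and 197 CPM in the control library at 19 DIV, and 180.5 CPM in the ES library and 465 CPM in the control library at 11 DIV, also highest in control at 11 DIV. St13 (Hip), which steadies HSP70 on its client, stood at 299 CPM in the ES library and 283 CPM in the control library at 19 DIV, and 219 CPM in the ES library and 420.3 CPM in the control library at 11 DIV.

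**Figure D3:**
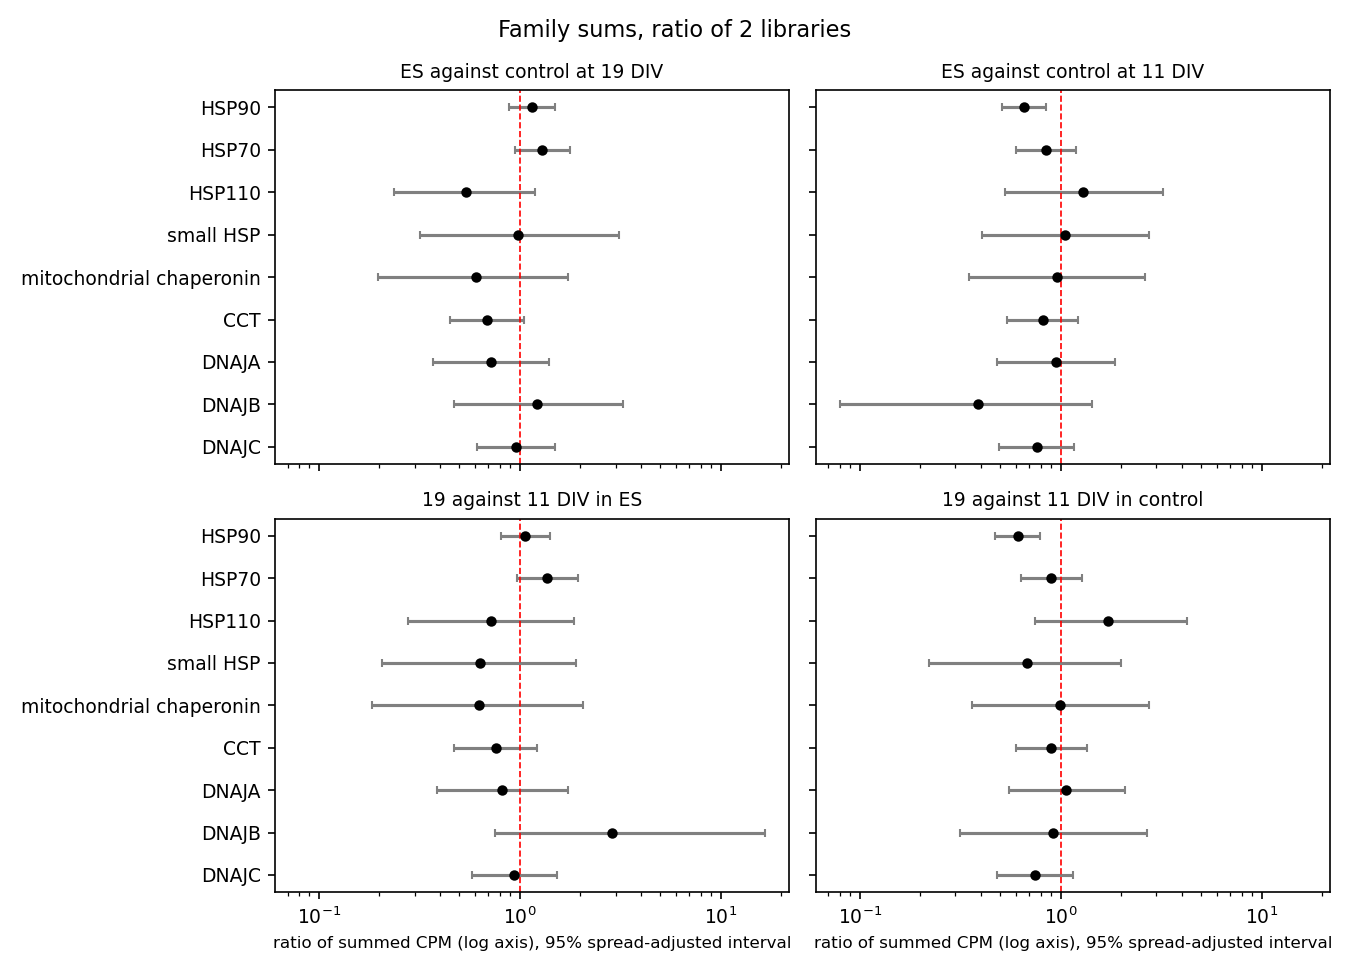
Ratio of summed CPM between 2 libraries (log axis) for each chaperone family in 4 comparisons, with points for the ratio, bars for the spread-adjusted 95% interval and a dashed line at equality. The HSP90 interval lies below equality for ES against control at 11 DIV and for 19 against 11 DIV in control, and all other family intervals include equality.

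Single genes were also counted by the counting rule, which covers counting error alone. For ES against control at 19 DIV, 15 of 62 chaperone genes were higher (29.4% of all genes with 50 reads were called) and 16 were lower (31.3% of all genes). At 11 DIV, 10 of 63 were higher in ES (28.9% of all genes) and 18 lower (29.6% of all genes). For 19 against 11 DIV, 18 of 62 were higher in ES (30.9% of all genes) and 15 lower (30.5% of all genes), and in control 14 of 65 were higher (30.9% of all genes) and 22 lower (29.8% of all genes). The shares of chaperone genes called lay from 15.9% to 33.8%. Furthest from the background were 15.9% higher in ES at 11 DIV, against 28.9%, and 21.5% higher between the days in control, against 30.9%. Whether these shares differ from the background was not tested.

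By the spread-adjusted rule, no chaperone gene was called for ES against control at 19 DIV (0.13% of all genes were called higher and 0.13% lower) or at 11 DIV (0.102% higher and 0.214% lower). Between the days, none was called in control (0.16% higher and 0.459% lower), and in ES the call was Hsp90b1, with none lower (0.263% of all genes). The median log2 difference of the chaperone genes for ES against control was -0.12 over 64 genes with a mean of 10 reads at 19 DIV, against -0.06 over all 10552, and -0.36 over 68 at 11 DIV, against -0.05 over all 10574. For 19 against 11 DIV it was -0.07 over 66 in ES, against -0.00 over all 10481, and -0.19 over 67 in control, against -0.00 over all 10696.

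A fit over all 4 libraries with terms for ES and for day left 1 residual degree of freedom. With edgeR's quasi-likelihood test and Benjamini-Hochberg adjustment, it called 0 of 65 chaperone genes for ES and 0 for day (0% of all 10050 genes for each). At an unadjusted p under 0.05 there were 2 chaperone genes for ES, Dnajc5 and Cct6a (1.08% of all genes), and 5 for day, Dnajc5, Hsp90b1, Hsp90aa1, Hspa1a and Hspb1 (2.01% of all genes). limma voom called none, and DESeq2 called 0 higher (2.09% of all genes) and 2 lower for ES, Dnajc1 and Cct6a (2.92% of all genes). For day DESeq2 called 5 higher, Hsp90b1, Dnajb1, Dnajc15, Hspb2 and Dnajc19 (4.11% of all genes), and 4 lower, Hspa1a, Dnajc5, Hsp90aa1 and Hspb1 (4.17% of all genes). With DESeq2 the adjusted p for day was 0.00841 for Hsp90b1 and 0.00157 for Hsp90aa1, and both directions held in the ES and the control pair.

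**Figure D4:**
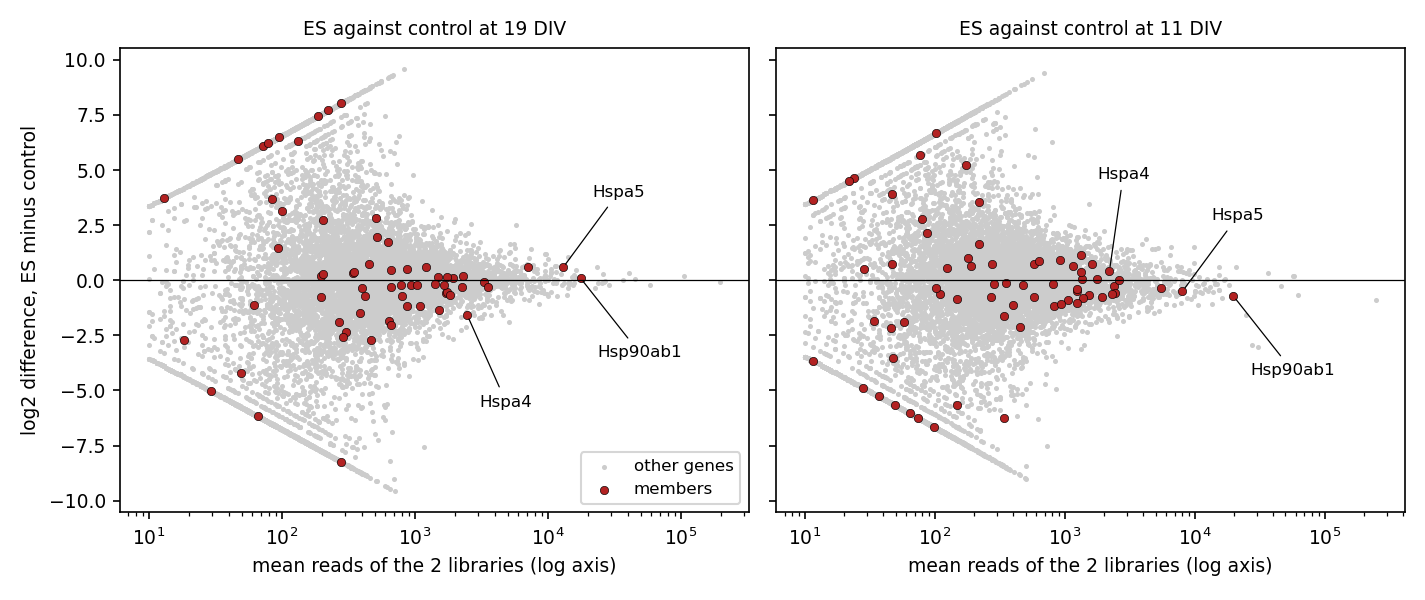
Log2 difference between the ES and the control library at 19 DIV (left) and 11 DIV (right) against the mean reads of the 2 libraries (log axis), with chaperone genes in red and other genes in grey, for genes averaging 10 reads or more. Most red points lie inside the grey cloud, which narrows with reads; Hspa5, Hsp90ab1 and Hspa4 are marked.

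The ratios of ES to control were also set side by side on the 2 days, since those of Hspa5 and Hsp90ab1 were above 1 at 19 DIV and below 1 at 11 DIV. These 2 genes prompted the comparison, so their intervals below are no separate evidence that the days differ. For the 8 chaperone genes that averaged 2000 reads or more, the ratio at 19 DIV was divided by that at 11 DIV. It was 1.75 for Hsp90ab1 (interval 1.12 to 2.73), 2.12 for Hspa5 (interval 1.14 to 3.92) and 0.247 for Hspa4 (interval 0.0660 to 0.926). The intervals of the other 5 included equality, Hsp90b1 among them (1.83, interval 0.662 to 5.05), and with the wider spread factor all 8 did. These intervals are not adjusted for the 8 genes.

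Outside the ER, the HSP70 genes did not share one direction. Hspa8 (HSC70), the constitutive cytosolic form that also strips clathrin from vesicles, stood at 275 CPM in the ES library and 338 CPM in the control library at 19 DIV, and 183 CPM in the ES library and 239.9 CPM in the control library at 11 DIV. ES lay below control on both days, at a ratio of 0.812 (interval 0.295 to 2.21) at 19 DIV and 0.765 (interval 0.195 to 2.82) at 11 DIV, within the spread. Hspa9 (mortalin), which pulls proteins into mitochondria, stood at 212 and 309.6 CPM in ES at 19 and 11 DIV, against 188 and 298 CPM in control, and ES and control differed little on either day. Its ratio of ES to control was 1.12 (interval 0.320 to 4.20) at 19 DIV and 1.04 (interval 0.356 to 3.07) at 11 DIV.

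Hspa12a, a distant HSP70 relative that is abundant in brain, stood at 329 CPM in the ES library and 292 CPM in the control library at 19 DIV, and 310.3 CPM in the ES library and 142 CPM in the control library at 11 DIV. Control at 11 DIV was the low library and the other 3 lay close together. It was the furthest above equality of the 30 abundant genes for ES at 11 DIV, at 2.19 (interval 0.605 to 9.88), and between the days in control, at 2.06 (interval 0.547 to 10.1). Hspa14, an HSP70 that associates with ribosomes, went the other way in ES, at 28.4 and 139 CPM in ES at 19 and 11 DIV, against 80.2 and 76.1 CPM in control, with a ratio of 19 to 11 DIV of 0.205 (interval 0.00259 to 2.64) in ES. The exons of Hspa12a overlap those of Eno4 on the other strand.

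The inducible HSP70 genes, Hspa1a and Hspa1b, were read at low counts. Hspa1a had 0 reads in the ES library and 0 in the control library at 19 DIV, and 341 in the ES library and 366 in the control library at 11 DIV. It was thus listed at 0 on 19 DIV in both groups and nearly equal in both at 11 DIV. With each 0 put at 3 reads, 19 DIV was 153-fold lower in ES and 145-fold lower in control. Hspa1b had 160 reads in the ES library and 9 in the control library at 19 DIV, and 203 in the ES library and 338 in the control library at 11 DIV. These genes are nearly identical copies, and how reads that match both were counted is not given in the sources used here. Their values are uncertain. The spread-adjusted intervals of Hspa1a between the days, 0 to 11.4 in ES and 0 to 7.67 in control, included equality.

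Of the HSP110 genes, the nucleotide exchange partners of HSP70, Hspa4 (APG-2) was the most abundant, at 173 CPM in the ES library and 519 CPM in the control library at 19 DIV, and 432 CPM in the ES library and 321 CPM in the control library at 11 DIV. At 19 DIV ES was the lowest and control the highest of the 4. ES over control was 0.333 (interval 0.105 to 0.912) at 19 DIV, below equality at 95% though not at 99%, and 1.35 (interval 0.524 to 3.62) at 11 DIV. Hsph1 (HSP105), which heat induces, had 994 reads in the ES library and 254 in the control library at 19 DIV, and 0 in the ES library and 149 in the control library at 11 DIV. Hspa4l, its relative with most expression in testis, had 350 reads in the ES library and 497 in the control library at 19 DIV, and 242 in the ES library and 117 in the control library at 11 DIV. The 3 genes summed to a ratio of ES to control of 0.543 (interval 0.237 to 1.20) at 19 DIV and 1.29 (interval 0.531 to 3.24) at 11 DIV.

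Among the small heat shock proteins, which hold unfolded proteins without ATP, Hspb1 (HSP27) stood at 102 CPM in the ES library and 72.8 CPM in the control library at 19 DIV, and 259.6 CPM in the ES library and 198 CPM in the control library at 11 DIV. Sensory neurons are known to express it, and mutations in human HSPB1 cause motor and sensory neuropathies. Both libraries of 11 DIV lay above both of 19 DIV, with a ratio of 19 to 11 DIV of 0.394 (interval 0.0668 to 1.81) in ES and 0.368 (interval 0.0397 to 2.16) in control. ES was higher than control on both days, at 1.40 (interval 0.187 to 14.7) at 19 DIV and 1.31 (interval 0.377 to 4.88) at 11 DIV. Hspb8 (HSP22), which acts with Bag3 in autophagy of aggregates, stood at 79.8 and 74.6 CPM in ES at 19 and 11 DIV, against 98.4 and 125 CPM in control. Hspb3 and Hspb9 had no reads. Cryab, the αB-crystallin of the same fold and no member by symbol, was far higher, at 658 CPM in the ES library and 848 CPM in the control library at 19 DIV, and 534 CPM in the ES library and 804 CPM in the control library at 11 DIV, lowest in ES at 11 DIV. Bag3 stood at 47.2 CPM in the ES library and 51.1 CPM in the control library at 19 DIV, and 199.7 CPM in the ES library and 72.7 CPM in the control library at 11 DIV and was highest in ES at 11 DIV.

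A set of 17 genes picked as heat-inducible held Hspa1a, Hsph1, Dnajb1, Hspb1 and Bag3. It also held Cryab, Hsp90aa1, Dnaja1, the constitutive Hspa8 and the mitochondrial Hspd1 and Hspe1, so it was neither all inducible nor all cytosolic. The set summed to 2717 CPM in the ES library and 3345 CPM in the control library at 19 DIV. At 11 DIV it summed to 3091 CPM in the ES library and 3872 CPM in the control library. The sum was lower in ES than in control on both days. Of its genes, 5 of 16 lay above equality for ES at 19 DIV and 4 of 17 at 11 DIV, Hspb1 among them on both days. For ES against control, 3 of the 16 with 50 reads were higher and 3 lower at 19 DIV (median log2 difference -0.26), and 2 of 17 were higher and 5 lower at 11 DIV (median -0.59). Over all genes, 29.4% were called higher and 31.3% lower at 19 DIV, and 28.9% higher and 29.6% lower at 11 DIV, so the set's counts do not exceed the background. No gene of the set passed the spread-adjusted rule in any of the 4 comparisons, a rule that genes with few reads could hardly pass. Reads of Hsf1, the main heat shock factor, numbered 180 in ES and 0 in control at 19 DIV, and 13 in ES and 124 in control at 11 DIV, too few and too uneven to give a direction. Hsbp1, which binds and restrains it, stood at 284 CPM in the ES library and 219 CPM in the control library at 19 DIV, and 210.3 CPM in the ES library and 289.8 CPM in the control library at 11 DIV.

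Heat shock elements were searched as a description in the same promoters, on both strands, as GAA, TTC and GAA with any 2 bases between units, and in shorter form as GAA and TTC or as TTC and GAA, which overlap the longer form. The longer form was present for 139 of 27025 genes (0.514%) and for 3 of 67 chaperone genes: Dnajb6, Hspd1 and Hspe1. Either short form was present for 3932 genes (14.5%) and for 17 of the 67 (25.4%), among them Hspa1a, Hspa1b, Hsph1, Hspb1 and Dnaja1. Hspd1 and Hspe1, which encode HSP60 and HSP10 of the mitochondrial chaperonin, start close to each other on opposite strands and share the letters between them. That stretch is shown for the pair, at chr1:55088051-55088079 of GRCm38.p6 on the plus strand, with the run of matching units in capitals.

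Hspe1: acggtccgTTCTAGAACCTTCCGGAAggc

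Despite the shared stretch, the partners did not have the same order over the libraries. Hspd1 stood at 117 CPM in the ES library and 136 CPM in the control library at 19 DIV, and 206 CPM in the ES library and 109 CPM in the control library at 11 DIV. Hspe1 stood at 92.0 CPM in the ES library and 209 CPM in the control library at 19 DIV, and 127 CPM in the ES library and 239 CPM in the control library at 11 DIV. Hspd1 was highest in ES at 11 DIV, while Hspe1 was lower in ES than in control on both days, at 0.441 (interval 0.0746 to 2.01) at 19 DIV and 0.531 (interval 0.104 to 2.21) at 11 DIV. Hspd1 had a ratio of ES to control of 0.859 (interval 0.159 to 4.63) at 19 DIV and 1.90 (interval 0.402 to 11.7) at 11 DIV. Exons of the pair overlap on opposite strands, so reads of one could be counted for the other. The 9 mitochondrial chaperone genes summed to 549 CPM in the ES library and 649.9 CPM in the control library at 19 DIV, and 689.6 CPM in the ES library and 687 CPM in the control library at 11 DIV.

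The CCT chaperonin is a ring of 8 different subunits, and all 8 were read in every library. Their sum was lower in ES than in control on both days, at 1248 CPM in the ES library and 1808 CPM in the control library at 19 DIV, and 1643 CPM in the ES library and 2009 CPM in the control library at 11 DIV. ES over control was 0.690 (interval 0.450 to 1.05) at 19 DIV and 0.818 (interval 0.542 to 1.23) at 11 DIV, and both intervals included equality. Of the 8 subunits, 6 lay below equality at 19 DIV (median log2 difference -0.57) and 5 at 11 DIV (median -0.35).

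Cct6a (zeta subunit; chr5:129786998-129846371, plus strand) stood at 118 CPM in the ES library and 304 CPM in the control library at 19 DIV, and 139 CPM in the ES library and 288 CPM in the control library at 11 DIV. Both ES libraries lay below both controls, with a ratio of 0.388 (interval 0.0873 to 1.39) at 19 DIV and 0.482 (interval 0.105 to 1.81) at 11 DIV. Exons of Cct6a overlap those of Psph on the other strand and of Snora15 on the same strand. Tcp1 (alpha subunit) stood at 193 and 104 CPM in ES at 19 and 11 DIV, against 282 and 217 CPM in control, with ratios of 0.684 (interval 0.206 to 2.17) at 19 DIV and 0.480 (interval 0.0768 to 2.25) at 11 DIV. Cct5 (epsilon), mutated in a human sensory neuropathy, stood at 73.1 and 76.1 CPM in ES at 19 and 11 DIV, against 167 and 88.0 CPM in control. Its ratio was 0.439 (interval 0.0554 to 2.47) at 19 DIV and 0.865 (interval 0.0754 to 8.95) at 11 DIV. Cct3 (gamma) varied least, at 182 and 176 CPM in ES at 19 and 11 DIV, against 202 and 249.6 CPM in control.

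Cct7 (eta) stood at 195 and 451 CPM in ES at 19 and 11 DIV, against 311 and 445 CPM in control, and both libraries of 11 DIV lay above both of 19 DIV. Cct8 (theta) stood at 247 and 333 CPM in ES at 19 and 11 DIV, against 222 and 495 CPM in control and had the same split between the days. Cct2 (beta) was highest in control at 19 DIV, at 188 and 239.9 CPM in ES at 19 and 11 DIV, against 282 and 152 CPM in control. Cct4 (delta) was the least abundant, at 51.3 and 124 CPM in ES at 19 and 11 DIV, against 40.2 and 75.3 CPM in control, and was the one subunit above equality for ES on both days. The 8 subunits had no common order over the libraries. Cct6b and Cct8l1, which are known from testis, had no reads. Prefoldin and other CCT cofactors, 9 genes, summed to 550.4 CPM in the ES library and 604 CPM in the control library at 19 DIV, and 906 CPM in the ES library and 1159 CPM in the control library at 11 DIV; of these, 1 was higher and 2 lower in ES on each day by the counting rule, against 29.4% of all genes higher and 31.3% lower at 19 DIV and 28.9% and 29.6% at 11 DIV.

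**Figure D5:**
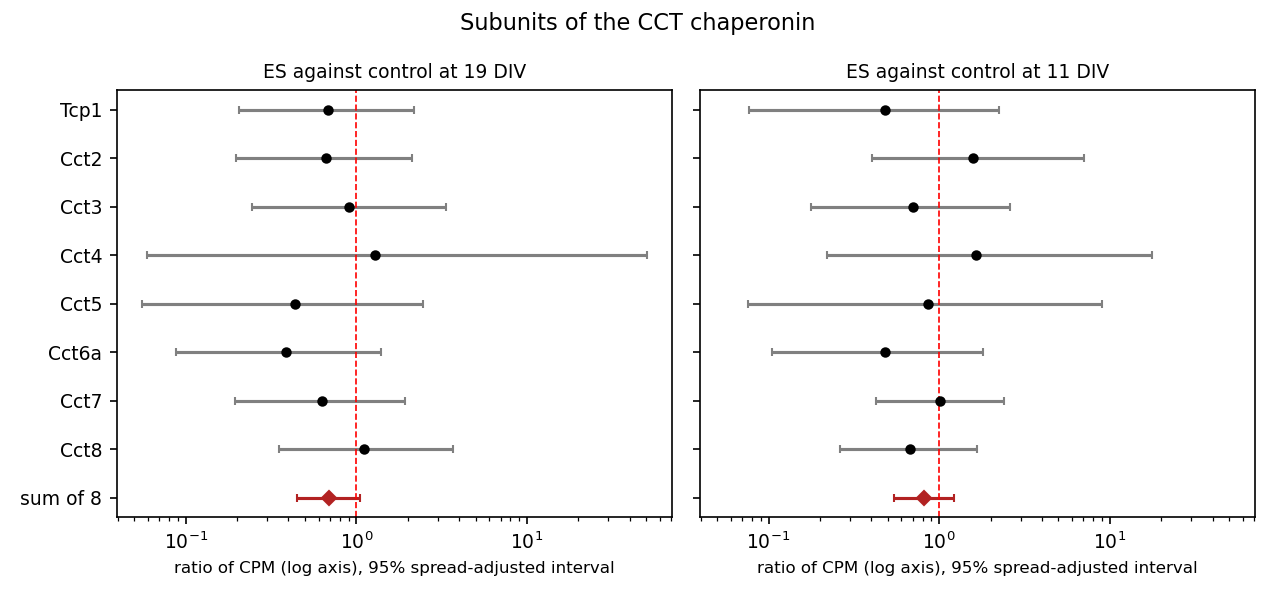
Ratio of CPM between the ES and the control library (log axis) for the 8 CCT subunits and their sum, at 19 DIV (left) and 11 DIV (right), with spread-adjusted 95% intervals and a dashed line at equality. Cct6a lies left of the line on both days, and every interval, the sums included, crosses it.

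The DnaJ genes that present clients to HSP70 were led by Dnaja1, at 429 CPM in the ES library and 535 CPM in the control library at 19 DIV, and 306 CPM in the ES library and 478 CPM in the control library at 11 DIV. ES was lower than control on both days, at 0.801 (interval 0.365 to 1.75) at 19 DIV and 0.641 (interval 0.240 to 1.62) at 11 DIV. Dnaja2, which works with Hspa8 in refolding, was highest in ES at 11 DIV, at 129 and 349 CPM in ES at 19 and 11 DIV, against 150.2 and 207 CPM in control. Dnaja3 and Dnaja4 were read at much lower counts.

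The DNAJB genes were sparse: 3 of 13 had reads in all 4 libraries and 3 had none. Their sum was 362 CPM in the ES library and 298 CPM in the control library at 19 DIV, and 126 CPM in the ES library and 325 CPM in the control library at 11 DIV, lowest in ES at 11 DIV, with a ratio of ES to control there of 0.387 (interval 0.0796 to 1.44). Dnajb6, which suppresses aggregation of polyglutamine proteins, stood at 81.9 CPM in the ES library and 136 CPM in the control library at 19 DIV, and 28.7 CPM in the ES library and 87.7 CPM in the control library at 11 DIV. The same library was the low one, at 0.327 (interval 0.00297 to 5.59) of control. Dnajb2, a neuronal form tied to inherited motor neuropathy in people, stood at 107 and 23.6 CPM in ES at 19 and 11 DIV, against 27.4 and 3.11 CPM in control, higher in ES than in control on both days. Its ratio was 3.92 at 19 DIV and 7.61 at 11 DIV, the second from 140 and 18 reads, with intervals that included equality. Dnajb1 (HSP40), the classic heat-inducible partner, had 140 reads in the ES library and 797 in the control library at 19 DIV, and 0 in the ES library and 56 in the control library at 11 DIV. Control at 19 DIV held most of its reads.

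Among the DNAJC genes, Dnajc5 encodes cysteine string protein, which keeps the SNARE protein SNAP-25 folded at nerve terminals. It stood at 36.2 CPM in the ES library and 149 CPM in the control library at 19 DIV, and 243 CPM in the ES library and 417 CPM in the control library at 11 DIV. ES lay below control on both days and 19 DIV below 11 DIV in both groups, so that ES at 19 DIV was the lowest by far. The ratio, ES over control, was 0.243 (interval 0.00888 to 2.06) at 19 DIV and 0.582 (interval 0.192 to 1.62) at 11 DIV, and for 19 over 11 DIV 0.149 (interval 0.00444 to 1.18) in ES and 0.357 (interval 0.0894 to 1.17) in control. The neuron markers were also lowest in ES at 19 DIV, where 7 of 10 were lower than in control by the counting rule (31.3% of all genes) and 3 by the spread-adjusted rule (0.13% of all genes). At 11 DIV their sum was higher in ES, and 4 of 10 were called higher by the counting rule (28.9% of all genes) and none lower. Their part in the Dnajc5 values was not tested. With DESeq2, Dnajc5 had an adjusted p of 0.000404 for day and 0.0502 for ES.

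Dnajc6 (auxilin), which brings Hspa8 to clathrin coats in neurons, had 112 reads in the ES library and 494 in the control library at 19 DIV, and 154 in the ES library and 1 in the control library at 11 DIV. The 2 controls held both the highest and the lowest count. Dnajc8, a splicing-associated protein, was the steadiest of the 30 abundant genes, at 206 and 234 CPM in ES at 19 and 11 DIV, against 242 and 227 CPM in control, 1.17-fold between its highest and lowest library. Dnajc7, which binds HSP70 and HSP90 alike, stood at 267 and 202 CPM in ES at 19 and 11 DIV, against 250.1 and 321 CPM in control, and its exons overlap those of the glial gene Cnp on the other strand. Dnajc9, a histone chaperone of dividing cells, was low in control at 19 DIV, at 113 and 131 CPM in ES at 19 and 11 DIV, against 15.7 and 146 CPM in control. This gave the furthest ratio above equality of the 30 for ES at 19 DIV, 7.23, from 904 and 108 reads, and the furthest below it between the days in control, 0.108; both intervals included equality. The 28 DNAJC genes summed to 1339.8 CPM in the ES library and 1403 CPM in the control library at 19 DIV, and 1429 CPM in the ES library and 1876 CPM in the control library at 11 DIV. Of these, 3 genes, Dnajc22, Dnajc5b and Dnajc5g, had no reads.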

How the data were processed

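RNA of dorsal root ganglion explants was measured in 4 QuantSeq libraries, 1 per group. The authors deposited 1 table of raw read counts per gene and library, with 23282 rows each, in whole numbers. Bowtie2, bedtools and mm10 are listed in the submitters' processing notes, without versions; the use of strand and the handling of duplicate and multiply matching reads were not given in the sources used here. Counts were scaled with TMM in edgeR 4.0.16 (R 4.3.3) over all rows and given as CPM. Ratios of 2 libraries had Clopper-Pearson intervals on the counts (scipy 1.17.1), and again on counts divided by the spread factor: the median of the squared difference over its counting variance, divided by the median of a chi-square distribution with 1 degree of freedom, over genes of 500 to 3000 mean reads. Log2 differences used a prior count of 2, and medians took genes averaging 10 reads or more. The intervals treat reads as independent molecules; no molecular identifiers are stated. Across the 4 libraries, terms for ES and day were fitted to the counts with edgeR's quasi-likelihood test after filterByExpr, with DESeq2 1.42.0 and limma 3.58.1 (voom) as alternatives, Benjamini-Hochberg adjusted at 0.05 over all genes; the ES by day difference stands as error there. A count of 0 was put at a floor of 3 reads per library where a fold is given. Genes named are all HSP90, HSP110, CCT and mitochondrial chaperonin genes, members of the other families averaging 500 reads or more (or the 2 most abundant), a short list of known inducible and neuronal members, members past the spread-adjusted rule and the 2 furthest each way per comparison; a few others were named after their values were seen. The genes, the lists and the marker sets were chosen with earlier results of these data known. Positions came from GENCODE M21 (GRCm38, the assembly of mm10), in which all 82 symbols occurred once, and promoters from RefSeq on GRCm38.p6. Besides the overlaps named above, exons of other members, among them Dnajc1, Tcp1, Hspa8 and Dnaja1, also overlap those of other genes. Alternatives were total-count, DESeq2 and Rn45s-free scaling, other minima of reads and folds, another prior count, thinning to equal depth, a 95% interval and a wider spread factor.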

Additional observations from a re-analysis of the deposited data

Results flagged for a closer look

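Of the 56 chaperone genes with 50 reads in 1 or both libraries on each day, 7 were called by the counting rule in opposite directions for ES on the 2 days (12.5%, against 18.6% of all 8460 genes so tested), and whether the days differ was not tested. Their ratios of ES to control were as follows, with a count of 0 put at 3 reads, a convention and not a bound. Hsph1 had a ratio of 3.38 at 19 DIV, from 994 and 254 reads. At 11 DIV it had 0 and 149 reads, a ratio of 0.0197, that is 50.8-fold lower in ES. Dnajb11 had a ratio of 227 at 19 DIV, from 263 and 1 reads, with a counting interval of 40.4 to 9001, and of 0.463 at 11 DIV, from 258 and 545 reads. Dnajc6 had a ratio of 0.196 at 19 DIV, from 112 and 494 reads, and of 151 at 11 DIV, from 154 and 1 reads, with a counting interval of 26.6 to 5986. The remaining 4 had fewer reads. Dnajb4 was 45.5-fold higher in ES at 19 DIV, from 158 and 0 reads, and had a ratio of 0.0134 at 11 DIV, from 4 and 291 reads. Dnajb12 was 107-fold higher in ES at 19 DIV, from 371 and 0 reads, and at 11 DIV, from 0 and 74 reads, its ratio was 0.0396. Dnajc18 had a ratio of 9.87 at 19 DIV, from 183 and 16 reads, and of 0.255 at 11 DIV, from 24 and 92 reads. Hspb6 was 27.0-fold higher in ES at 19 DIV, from 94 and 0 reads, and had a ratio of 0.0659 at 11 DIV, from 6 and 89 reads. For each of the 7 genes, the spread-adjusted interval included equality on both days. At such counts it could hardly do otherwise, so this says little of these genes. Even Cdc37l1, a co-chaperone gene with 1025 and 0 reads in control at 19 and 11 DIV, had an interval that starts at 0.654. Groups of 1 library do not allow a search for samples that stand apart from their group.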

How the results depend on the processing

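The 480 alternative values of single genes came from the other scalings and from thinning alone, and all stayed inside the spread-adjusted interval. These settings shift the ratios of a pair by little. A gene called at 2-fold could thus hardly change direction, and that none did says little. No family ratio or median left its interval. The 18 values that moved were counts of called genes and are given below. With 500 in place of 50 reads in the higher library, the counting rule called 4 chaperone genes higher and 9 lower for ES at 19 DIV (23.6% and 20.4% of all genes with such reads), 1 and 7 at 11 DIV (19.9% and 20.8%), 6 and 7 for 19 against 11 DIV in ES (27.4% and 18.4%), and 3 and 8 in control (24.9% and 19.7%). At 1.5-fold it called 18 higher and 28 lower for ES at 11 DIV (36% and 36.9% of all genes), and the spread-adjusted rule called 1 lower for ES at 11 DIV (0.275% of all genes) and 1 lower between the days in control (0.489%). A 95% in place of a 99% interval called 1 lower for ES at 19 DIV (0.519%) and 1 lower between the days in control (0.758%). The spread factor from 2000 to 20000 reads, added after seeing the data, was 243 to 597 and left 0 calls in place of Hsp90b1 (0.101% of all genes called higher). DESeq2 called 2 lower for ES, and 5 higher and 4 lower for day, where edgeR called 0; the cause was not tested. Total-count scaling moved the median log2 difference of genes with 500 reads from 0.01 to 0.14 between the days in control and from -0.05 to 0.09 for ES at 11 DIV. Members with few reads had wide intervals. No reads were found in some but not all libraries for 23 members, 4 of them with over 500 reads in another library (Hsph1 994, Dnajb1 797, Dnaja4 560 and Dnajc21 558), and the cause was not tested. The fit with ES and day sets ES against control within each day; no replicate block was added, since each group has 1 library and the labels carry no replicate numbers. Leaving out a library leaves no residual degree of freedom.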

Other observations

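The 8 genes listed as mitochondrial partners of Hspa9 and Hspd1 were Grpel1, Grpel2, Hscb, Clpb, Clpp, Clpx, Lonp1 and Trap1. They summed to 520.1 CPM in the ES library and 324 CPM in the control library at 19 DIV. At 11 DIV they summed to 171 CPM in the ES library and 262 CPM in the control library. Trap1 had the most reads of the set in ES at 19 DIV, with 967 reads against 26 in control. For ES against control at 19 DIV, 5 of the 8 lay above equality. Between the days in ES, 6 of the 8 were higher by the counting rule and none lower, and in control 2 of 6 were higher and 2 lower; 30.9% of all genes were called higher in each, and 30.5% lower in ES and 29.8% lower in control. None passed the spread-adjusted rule, which genes with few reads could hardly pass. Pdia4, a disulfide isomerase of the ER, stood at 305 CPM in the ES library and 100.1 CPM in the control library at 19 DIV, and 7.93 CPM in the ES library and 15.4 CPM in the control library at 11 DIV, so that both libraries of 19 DIV lay above both of 11 DIV. Its ratio of 19 to 11 DIV was 38.4 in ES, from 2436 and 47 reads, with a spread-adjusted interval that starts at 1.39. A mixed set of 7 genes held Hspa8, Dnajc5, Dnajc6, Gak and Dnajc13, and also Dnajb2 and Dnajb6, which are described above in other roles. It summed to 613 CPM in the ES library and 825 CPM in the control library at 19 DIV. At 11 DIV it summed to 559.8 CPM in the ES library and 867 CPM in the control library. For ES against control, 2 of the 7 lay above equality on each day, Dnajb2 among them.

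Markers of the glia and of other cells of the ganglion differed between the libraries in orders of their own. The 10 Schwann or satellite glia markers summed to 8885 CPM in the ES library and 10667 CPM in the control library at 19 DIV, and 7208 CPM in the ES library and 4430.3 CPM in the control library at 11 DIV. Mural or smooth muscle markers summed to 387 CPM in the ES library and 140.0 CPM in the control library at 19 DIV, and 292 CPM in the ES library and 114 CPM in the control library at 11 DIV, higher in ES on both days. Myh11 among them had no reads in any library. Perineurial markers summed to 276 CPM in the ES library and 132 CPM in the control library at 19 DIV, and 114 CPM in the ES library and 133 CPM in the control library at 11 DIV. These reads came from Slc2a1 and Itgb4 alone, as Cldn1 and Lypd2 had none in any library. Cycling markers summed to 533 CPM in the ES library and 582 CPM in the control library at 19 DIV, and 626 CPM in the ES library and 461 CPM in the control library at 11 DIV. Macrophage markers summed to 114 CPM in the ES library and 56.3 CPM in the control library at 19 DIV, and 67.5 CPM in the ES library and 125 CPM in the control library at 11 DIV. Of these 9 markers, 5 had no reads in ES and 6 had none in control at 19 DIV. Of the 5 with a mean of 10 reads at 19 DIV, 3 lay above equality for ES, while C1qa had 0 reads in ES and 214 in control. Endothelial markers summed to 8.01 CPM in the ES library and 0 CPM in the control library at 19 DIV, and 48.3 CPM in the ES library and 23.8 CPM in the control library at 11 DIV. Cdh5 gave all the endothelial reads in both ES libraries.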
